A study of Mus musculus with 4 samples.

Results

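The 9 genes described here encode chemokine receptors of regulatory T cells (Tregs): Ccr2, Ccr4, Ccr6, Ccr7, Ccr8, Cxcr3, Cxcr4, Cxcr5 and Cxcr6. They were taken by gene symbol from tables of 28032 genes with an exon length, and all 9 symbols were found. Messenger RNA was counted in 4 libraries of CD4+Foxp3+ Tregs sorted by flow cytometry from C57BL/6 mice aged 8 weeks. Csnk2b-deficient mice, whose genotype is labelled Csnk2b-/-, gave 1 library from the tracheal lymph nodes and 1 from the spleen, and wild-type (WT) mice gave 1 from each tissue. Csnk2b encodes the regulatory beta subunit of the protein kinase CK2. The sources used here name no promoter or Cre driver behind the deficiency, and do not say in which cells it acted or whether animals were pooled. The 2 libraries of a genotype came from different tissues, so no library has a replicate of the same kind.

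Chemokine receptors are G-protein-coupled receptors that read gradients of chemokines and steer cells towards their source. They signal mainly through inhibitory G proteins, and the surface level of each receptor helps to set which tissues a T cell enters and where it stays within them. Naive and central Tregs use Ccr7 to enter lymph nodes. Effector Tregs take up receptors for inflamed tissue, such as Cxcr3 in type 1 responses, Ccr4 and Ccr8 in skin, airway and type 2 settings, and Ccr6 at mucosal surfaces, while Cxcr5 leads cells to B cell follicles.

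Total exon reads ranged from 4737814 to 6750695 per library. The WT lymph node library had reads in 12157 genes, the fewest, and the other libraries in 14335 to 15515. Csnk2b had 283 reads in Csnk2b-deficient and 667 in WT lymph node Tregs, and 148 in Csnk2b-deficient and 649 in WT spleen Tregs. All 8 Treg and CD4 T cell markers had reads in every library, and all 6 neutrophil markers had 0 reads in each. The protocol names a TruSeq kit for samples 1 and 2 and a SMARTer and Nextera kit for samples 3 and 4. If these numbers follow the order of listing, kit and tissue cannot be told apart. Levels are given below as CPM, exon read counts divided by library size after the libraries were scaled to each other. Fewer cells with a transcript and less transcript per cell cannot be told apart in such bulk libraries.

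Per kilobase of exon, which allows levels of different genes to be set side by side, the sum of the 9 receptors was similar between genotypes and differed between tissues. It was 668 CPM per kb in Csnk2b-deficient and 703 in WT lymph node Tregs, and 267 in Csnk2b-deficient and 254 in WT spleen Tregs. The receptors that made up the sum differed by genotype. Cxcr3 held the first place in both Csnk2b-deficient libraries, with 35.2% of the summed level in the lymph node and 31.9% in the spleen. In WT it held 8.39% in the lymph node, behind Ccr7, Ccr8 and Ccr6, and 22.1% in the spleen, where it led narrowly. Ccr7 led in WT lymph node Tregs with 32.5% of the sum, against 22.6% in Csnk2b-deficient lymph node Tregs. WT spleen Tregs had Ccr7 in second place with 22.0%, within a fraction of a percent of Cxcr3, and Csnk2b-deficient spleen Tregs had it second with 16.4%. Ccr8 and Ccr6 followed Ccr7 in WT lymph node Tregs with 27.8% and 21.5%. Cxcr4 made up 13.2% in Csnk2b-deficient and 13.4% in WT spleen Tregs, but 1.14% and 1.06% of the sum in the Csnk2b-deficient and WT lymph node libraries. Cxcr6 was last in both WT libraries and in Csnk2b-deficient spleen Tregs.

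**Figure D1:**
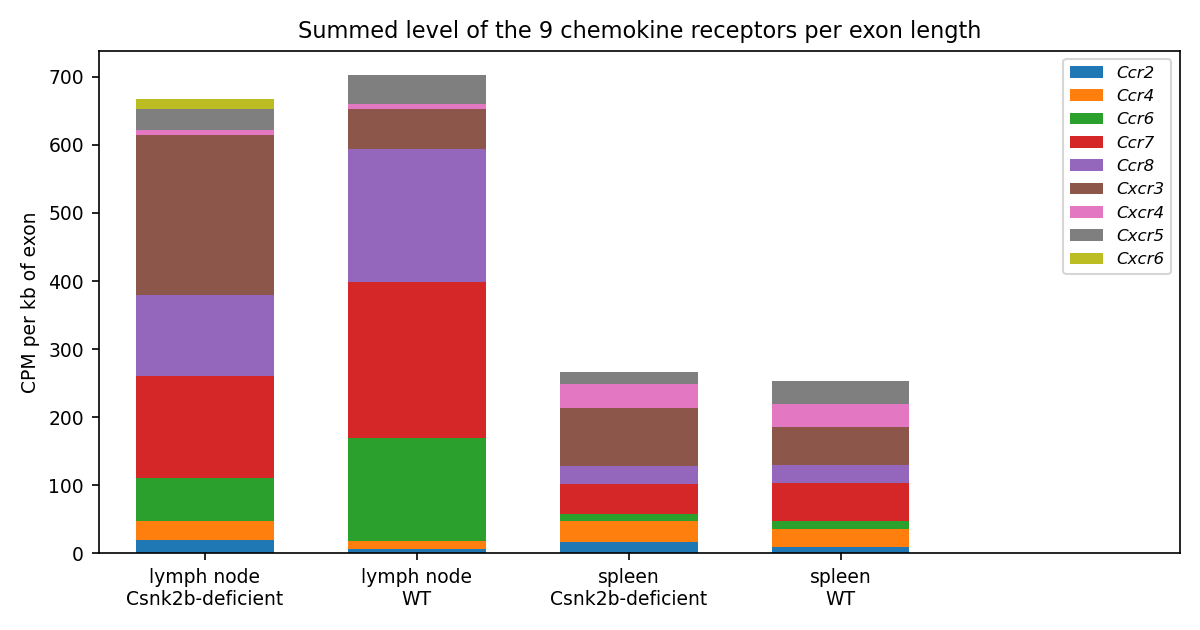
Summed level of the 9 receptors in CPM per kb of exon, stacked by gene, in the 4 libraries. The 2 lymph node bars reach 668 (Csnk2b-deficient) and 703 (WT), the 2 spleen bars 267 and 254, and the Cxcr3 share is larger in the Csnk2b-deficient bar of each tissue.

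The first comparison set Csnk2b-deficient Tregs against WT Tregs of the same tissue, to find receptor transcripts that differ when the CK2 beta subunit is lost. Cxcr3, Ccr2 and Ccr4 had a higher level in CPM in Csnk2b-deficient Tregs of both tissues, and Ccr6, Ccr7 and Cxcr5 a lower level in both. With the near-equal Cxcr4, 4 receptors were higher in both pairs at any size and 3 lower, compared with 27.5% and 29.2% of all genes. Ccr8 was lower in the lymph node pair and close to equal in the spleen pair, and Cxcr4 was close to equal in both. Of the 9 receptors 8 entered the test, and Cxcr6 had too few reads in 3 libraries. By edgeR's quasi-likelihood test with tissue and genotype as factors and Benjamini-Hochberg adjustment, 0 of these 8 passed an adjusted p of 0.05 as higher and 0 as lower, compared with 0.126% and 0.0180% of all 11113 genes tested. At an unadjusted p below 0.05 there were 5 of 8 receptors, and 4.88% of all genes. The same test did not call Csnk2b itself, at a log2 fold change of -1.54 (standard error 0.26, edgeR adjusted p = 0.0658). DESeq2, limma-voom and edgeR without a filter on low counts each called 2 receptors higher, Ccr2 and Cxcr3, and 0 lower. The shares of all genes called higher were 0.342% (DESeq2), 0.351% (limma-voom) and 0.450% (edgeR, no filter), and the shares called lower were 0.144%, 0.189% and 0.182% in the same order. The test rests on 1 residual degree of freedom, which is how far the genotype ratio differs between the tissues. The variance of each gene was also drawn towards that of other genes, with a median of 10.1 prior degrees of freedom. Its standard errors (SE) are therefore not a spread between like libraries or animals.

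**Figure D2:**
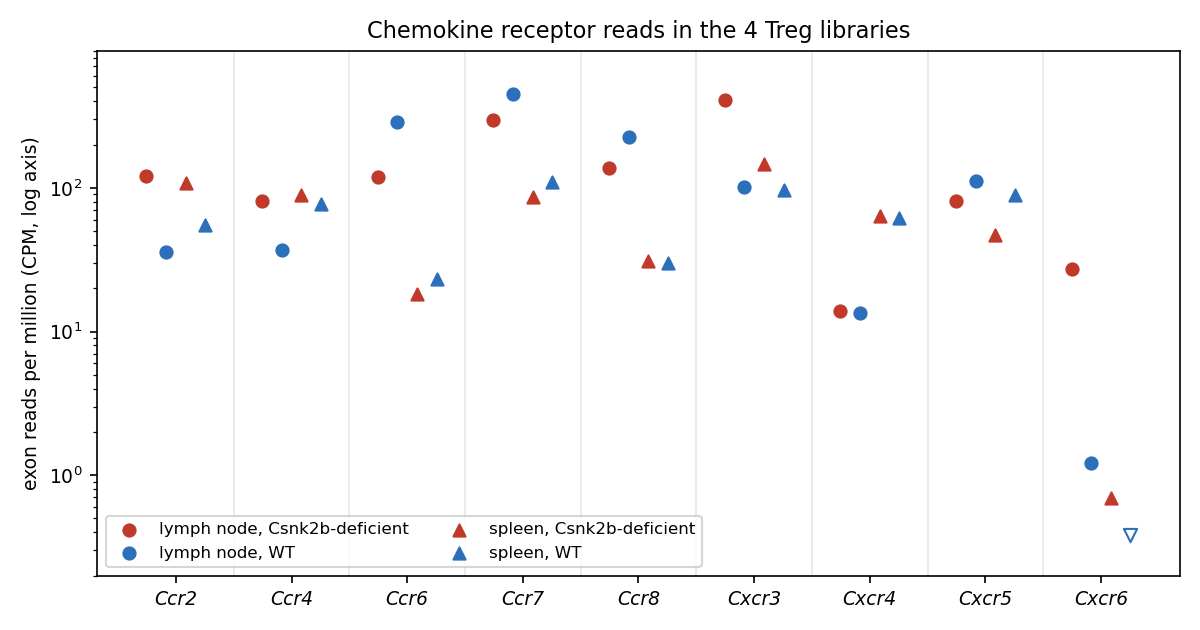
Level in CPM (log axis) of each receptor in the 4 libraries, circles for the lymph node and triangles for the spleen, red for Csnk2b-deficient and blue for WT. The open triangle marks the level that 3 reads would give in WT spleen Tregs, where Cxcr6 had 0 reads. Cxcr3 and Ccr2 are higher in the Csnk2b-deficient library of each tissue, and Ccr6, Ccr7 and Ccr8 are higher in both lymph node libraries than in both spleen libraries.

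Cxcr3, the receptor for the interferon-induced chemokines Cxcl9, Cxcl10 and Cxcl11, had 407 CPM (1858 reads) in Csnk2b-deficient and 102 CPM (418 reads) in WT lymph node Tregs. In the spleen it had 147 CPM (852 reads) in Csnk2b-deficient and 97.2 CPM (766 reads) in WT Tregs. Both Csnk2b-deficient libraries lay above both WT libraries, which were close to each other. The ratio of Csnk2b-deficient to WT was 3.99 in the lymph node (95% exact binomial interval 3.58 to 4.44) and 1.52 in the spleen (1.37 to 1.67). These intervals cover counting error only. Over both pairs, edgeR gave a log2 fold change of 1.30 ± 0.31 (SE, n = 2 libraries per genotype) and an adjusted p of 0.293. The adjusted p was 0.0216 by DESeq2, 0.0100 by limma-voom and 5.28e-05 by edgeR without a filter, and over all 12 alternative fits it ranged from 5.28e-05 to 1.00. Whether the larger ratio in the lymph node differs from that in the spleen could not be tested with 1 library per genotype and tissue. Cxcr3 lies on the X chromosome (98926874 to 98929608, mm9), and all of its exon reads were uniquely placed.

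Ccr2, the receptor for Ccl2 that also marks classical monocytes, had 122 CPM (555 reads) in Csnk2b-deficient and 35.9 CPM (147 reads) in WT lymph node Tregs. In the spleen it had 107 CPM (621 reads) in Csnk2b-deficient and 55.2 CPM (435 reads) in WT Tregs. The genotypes did not overlap, and the Csnk2b-deficient libraries were close to each other. The ratio was 3.39 in the lymph node (2.82 to 4.09) and 1.95 in the spleen (1.72 to 2.21). Over both pairs it had a log2 fold change of 1.35 ± 0.29 (SE, n = 2 per genotype). The adjusted p was 0.209 by edgeR, 0.0491 by DESeq2, 0.0216 by limma-voom and 0.000981 by edgeR without a filter. It ranged up to 1.00 over the 12 alternatives. Monocyte and macrophage markers moved with Ccr2 in the lymph node. Their 9 genes summed to 336 CPM in Csnk2b-deficient and 49.9 CPM in WT lymph node Tregs, with reads in 9 of 9 and 3 of 9 genes. Most were Lyz2, with 1291 and 187 reads, while the defining gene Csf1r had 38 and 0. In the spleen these markers summed to 10.9 CPM in Csnk2b-deficient and 14.3 CPM in WT Tregs, the opposite direction to Ccr2. Their part in the lymph node ratio of Ccr2 was not tested. Ccr2 lies on chromosome 9 (124016689 to 124028296, mm9), and a unique place was found for 97.3% of its exon reads. Counting those alone, edgeR gave a log2 fold change of 1.33 ± 0.29 (SE, n = 2 per genotype).

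Ccr4 and Ccr8 are receptors of skin- and airway-homing Tregs, Ccr4 for Ccl17 and Ccl22 and Ccr8 for Ccl1 and Ccl8. Ccr4 had 81.1 CPM in Csnk2b-deficient and 37.2 CPM in WT lymph node Tregs, and 89.4 CPM in Csnk2b-deficient and 77.7 CPM in WT spleen Tregs. The WT lymph node library stood apart, with less than the other libraries, which lay close together. The Ccr4 ratio was 2.18 in the lymph node, from 370 and 152 reads in Csnk2b-deficient and WT Tregs, and 1.15 in the spleen (1.02 to 1.30), and its log2 fold change of 0.65 ± 0.30 was not called (edgeR adjusted p = 0.890). Ccr8 had 137 CPM in Csnk2b-deficient and 226 CPM in WT lymph node Tregs, and 31.1 CPM in Csnk2b-deficient and 29.8 CPM in WT spleen Tregs. Its ratio was 0.606 in the lymph node (0.547 to 0.672), while the spleen ratio of 1.04 had an interval that held 1 (0.855 to 1.27). For Ccr8 edgeR gave -0.35 ± 0.27 on the log2 scale (SE, n = 2 libraries of each genotype, adjusted p = 0.893). These genes, both on chromosome 9 (Ccr4 114399434 to 114405662, Ccr8 120001251 to 120004024, mm9), had ratios on opposite sides of 1 in the lymph node pair.

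Ccr6, the receptor for Ccl20 on mucosal and Th17-type cells, had 119 CPM (543 reads) in Csnk2b-deficient and 285 CPM (1167 reads) in WT lymph node Tregs. In the spleen it had 18.3 CPM (106 reads) in Csnk2b-deficient and 23.1 CPM (182 reads) in WT Tregs. The ratio was 0.417 in the lymph node (0.376 to 0.462), and in the spleen it was 0.794 with an interval that held 1 (0.619 to 1.01). The log2 fold change of -0.83 ± 0.28 (SE, n = 2 per genotype) was not called (edgeR adjusted p = 0.794), and across tissues the genotypes overlapped.

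Ccr7, which brings T cells into lymph nodes along Ccl19 and Ccl21, had 298 CPM in Csnk2b-deficient and 451 CPM in WT lymph node Tregs. In the spleen it had 86.5 CPM in Csnk2b-deficient and 110 CPM in WT Tregs. The ratio was 0.661 in the lymph node (0.616 to 0.709) and 0.783 in the spleen (0.700 to 0.875), and the log2 fold change was -0.48 ± 0.20 (edgeR adjusted p = 0.890). The tissues of Ccr7 stood farther apart than the genotypes.

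Cxcr5, the follicle-homing receptor for Cxcl13, had 80.5 CPM in Csnk2b-deficient and 112 CPM in WT lymph node Tregs, and 46.7 CPM in Csnk2b-deficient and 89.2 CPM in WT spleen Tregs. Both Csnk2b-deficient libraries lay below both WT libraries. Its ratio was 0.524 in the spleen (0.454 to 0.604) and 0.720 in the lymph node (0.626 to 0.828), so here the spleen pair was farther apart. edgeR gave Cxcr5 a log2 fold change of -0.70 ± 0.26 (SE, n = 2 libraries of each genotype, adjusted p = 0.890). Cxcr5, Ccr6 and Ccr7 are also B cell genes. The 7 B cell markers found in the tables summed to 106 CPM in Csnk2b-deficient and 160 CPM in WT lymph node Tregs, and to 17.8 CPM in Csnk2b-deficient and 16.4 CPM in WT spleen Tregs. Cd79b carried most of these reads, while Pax5 had 0 in all libraries, and Ms4a1 had 5 reads in Csnk2b-deficient lymph node Tregs and 0 in the other libraries. The part of B cell RNA in these receptors was not tested.

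Cxcr4, the receptor for Cxcl12 that holds cells in bone marrow and in stromal niches, had 13.8 CPM in Csnk2b-deficient and 13.4 CPM in WT lymph node Tregs. In the spleen it had 63.8 CPM in Csnk2b-deficient and 61.5 CPM in WT Tregs. Its genotype ratios were 1.03 in the lymph node (0.704 to 1.50) and 1.04 in the spleen (0.904 to 1.19), and its log2 fold change was 0.05 ± 0.35 (edgeR adjusted p = 0.992). The interval of the lymph node ratio rests on 63 and 55 reads.

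**Figure D3:**
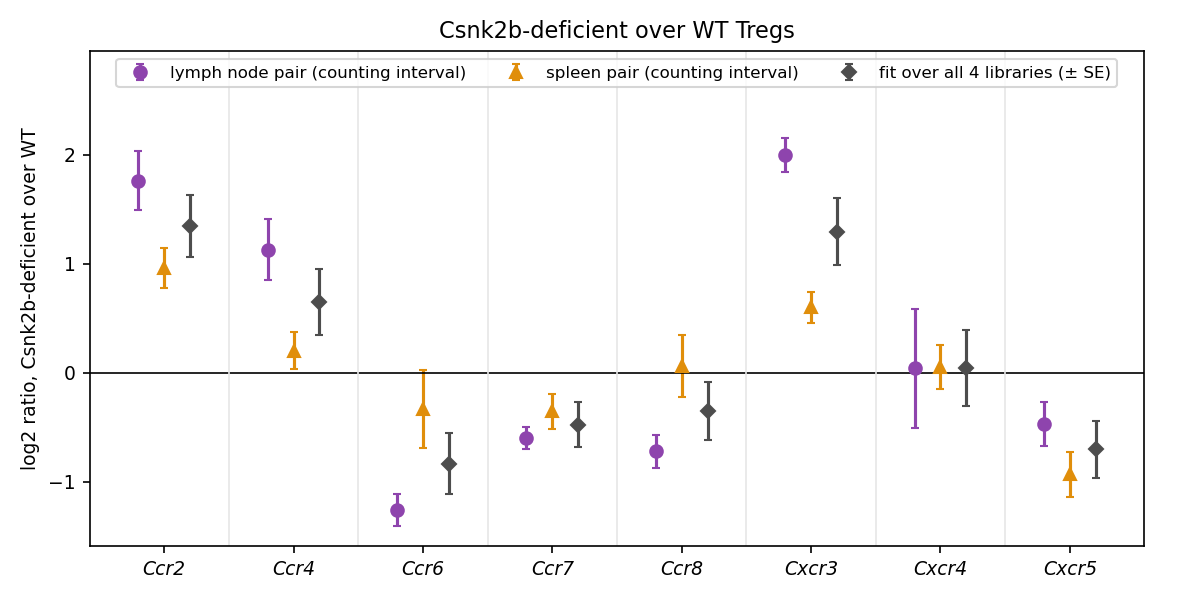
Log2 ratio of Csnk2b-deficient over WT for the 8 tested receptors, circles for the lymph node pair and triangles for the spleen pair with 95% counting intervals, and diamonds for the fit over all 4 libraries ± SE. Cxcr3, Ccr2 and Ccr4 lie above 0 and Ccr6, Ccr7 and Cxcr5 below 0 in both pairs.

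Cxcr6, the receptor for the membrane-bound chemokine Cxcl16, had 124 exon reads in Csnk2b-deficient and 5 in WT lymph node Tregs, and 4 in Csnk2b-deficient and 0 in WT spleen Tregs. A count of 0 in the WT spleen library allows up to 0.380 CPM. The lymph node ratio was 22.2 (95% exact binomial interval 9.28 to 69.7, counting error only). Most of these reads were not uniquely placed. The gene lies on chromosome 9 (123715595 to 123720872, mm9) inside the span of Fyco1 (123698628 to 123761020). Only 15.0% of its exon reads were uniquely placed, against 97.3% or more for the other 8 receptors. Uniquely placed reads numbered 17 in Csnk2b-deficient and 1 in WT lymph node Tregs, and 2 in Csnk2b-deficient and 0 in WT spleen Tregs, and in each library they equalled the reads across an exon junction. On them the lymph node ratio was 15.2 (2.39 to 637). Exon reads gave Fyco1 64.7 CPM in Csnk2b-deficient and 86.3 CPM in WT lymph node Tregs. Counted over its whole span, introns included, Fyco1 had 1244 reads in Csnk2b-deficient and 819 in WT lymph node Tregs, so the larger count was in the Csnk2b-deficient library, as for Cxcr6. The part of Fyco1 transcripts in the Cxcr6 reads was not tested. With no filter on low counts, edgeR gave Cxcr6 a log2 fold change of 4.52 ± 1.31 by genotype and an adjusted p of 0.0734. The same fit called Cxcr6 higher in the lymph node than in the spleen, at 5.27 ± 1.33 (adjusted p = 0.000432), as it did 14.6% of all genes. Against 0 reads in WT spleen Tregs these fitted values depend on the prior count and are no bound.

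Set against all genes, the lymph node pair differed more than the spleen pair. The median absolute log2 ratio over all tested genes was 0.53 in the lymph node and 0.17 in the spleen, and 79.2% of genes had the larger absolute ratio in the lymph node, as did 6 of the 8 tested receptors. Past a 2-fold difference in the lymph node pair, 3 receptors were higher in Csnk2b-deficient Tregs (Cxcr3, Ccr2 and Ccr4) and 1 lower (Ccr6), compared with 16.1% and 10.1% of all genes. In the spleen pair 0 receptors passed 2-fold, and 2.45% of all genes did so as higher and 1.73% as lower. Both Csnk2b-deficient libraries were above both WT libraries for 3 receptors and 7.18% of all genes, and below them for 1 receptor, Cxcr5, and 7.08% of all genes. The median log2 fold change of the 8 receptors was -0.15, and that of all genes was 0.0087.

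Between tissues, lymph node Tregs had higher Ccr6, Ccr7 and Ccr8 and lower Cxcr4 than spleen Tregs in both genotypes. By edgeR, with genotype in the same fit, 3 of the 8 tested receptors rose and 1 fell, and over all genes 23.3% rose and 22.2% fell. Such shares are no result about the receptors as a group, since 45.4% of all genes were called in either direction. The 4 calls held in all 12 alternative fits. Both lymph node libraries lay above both spleen libraries for 3 receptors and 35.9% of all genes, and below them for 1 receptor and 40.7% of all genes. Ccr6 rose by 3.18 ± 0.30 on the log2 scale (SE, n = 2 libraries per tissue, adjusted p = 1.37e-05), with lymph node to spleen ratios of 6.49 in Csnk2b-deficient (5.26 to 8.07) and 12.4 in WT Tregs (10.6 to 14.5). Ccr8 rose by 2.53 ± 0.28 (adjusted p = 3.67e-05), with ratios of 4.40 (3.72 to 5.22) in Csnk2b-deficient and 7.59 (6.57 to 8.79) in WT Tregs. Ccr7 rose by 1.91 ± 0.21 (adjusted p = 3.34e-05), with ratios of 3.45 in Csnk2b-deficient and 4.09 in WT Tregs. Cxcr4 fell by 2.20 on the log2 scale (SE 0.36, adjusted p = 0.000498), to ratios of 0.216 in Csnk2b-deficient and 0.219 in WT Tregs, the closest match between genotypes among the receptors. If libraries are scaled by total exon reads alone, lymph node to spleen ratios shift by -0.52 in Csnk2b-deficient and -0.44 in WT Tregs on the log2 scale, and these 4 directions stay as they are.

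The other 4 tested receptors were not called between tissues by edgeR, and the ratios of Cxcr3, Ccr4 and Ccr2 were unlike in the 2 genotypes, a difference that was not tested. Cxcr3 had a lymph node to spleen ratio of 2.76 in Csnk2b-deficient (2.55 to 3.00) and 1.05 in WT Tregs (0.931 to 1.19), with a log2 difference of 0.78 ± 0.31 and an edgeR adjusted p of 0.0580. DESeq2, limma-voom, edgeR without a filter and the fit without the WT lymph node library called it. Ccr4 had ratios of 0.907 (0.792 to 1.04) in Csnk2b-deficient and 0.478 (0.397 to 0.572) in WT Tregs, and a log2 difference of -0.59 ± 0.30 (edgeR adjusted p = 0.132). Ccr2 had ratios of 1.13 (1.01 to 1.27) in Csnk2b-deficient and 0.651 (0.536 to 0.787) in WT Tregs, and a log2 difference of -0.21 ± 0.28 (edgeR adjusted p = 0.578). For Cxcr5 the ratios were 1.72 (1.47 to 2.02) in Csnk2b-deficient and 1.25 (1.11 to 1.41) in WT Tregs, and the log2 difference was 0.55 ± 0.26 (edgeR adjusted p = 0.108). Past a 2-fold difference between tissues, Csnk2b-deficient Tregs had 4 receptors higher and 1 lower in the lymph node, with 26.8% and 26.9% of all genes, and WT Tregs had 3 higher and 2 lower, with 25.4% and 30.4% of all genes. Scaling by total exon reads alone turned the Ccr2 value in Csnk2b-deficient Tregs and the Cxcr3 and Cxcr5 values in WT Tregs to the other side of 0.

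**Figure D4:**
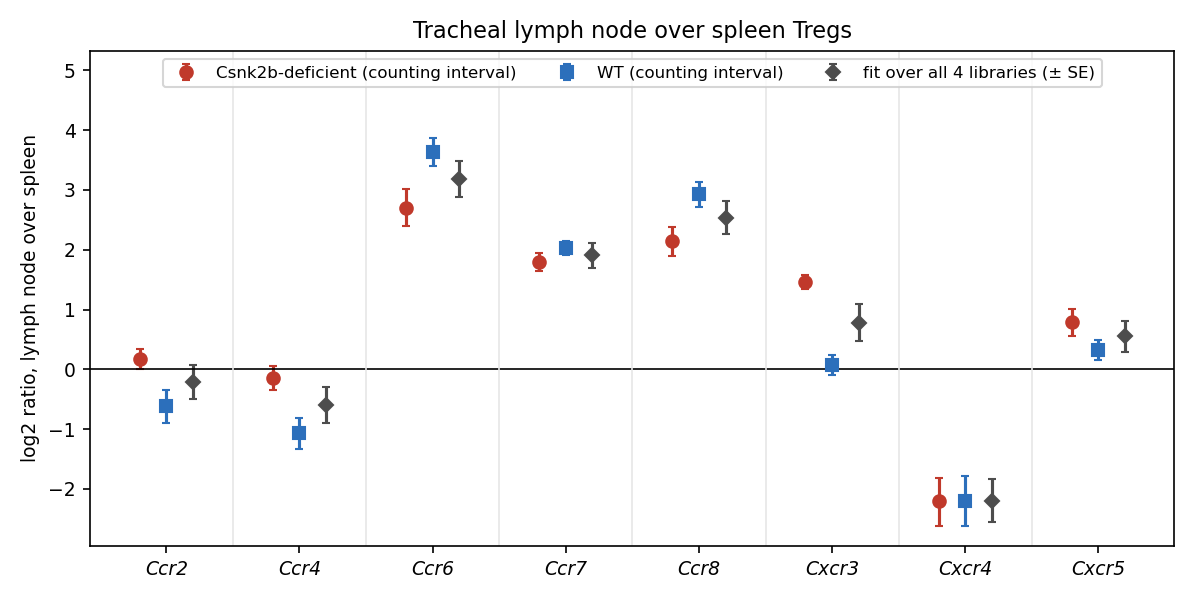
Log2 ratio of tracheal lymph node over spleen Tregs for the 8 tested receptors, circles for Csnk2b-deficient and squares for WT with 95% counting intervals, and diamonds for the fit over all 4 libraries ± SE. Ccr6, Ccr7 and Ccr8 lie above 0 and Cxcr4 below 0 in both genotypes, with Cxcr4 at nearly the same value in each.

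Markers of other cells also differed by tissue. B cell markers summed to 106 and 160 CPM in the Csnk2b-deficient and WT lymph node libraries, against 17.8 and 16.4 CPM in the spleen libraries, next to the rise of Ccr6 and Ccr7. Of these, Cd79b rose by 3.00 ± 0.32 on the log2 scale (edgeR). Of the 8 Treg and CD4 T cell markers 5 rose in the lymph node (Lck, Cd3g, Cd3e, Il2ra and Ctla4), as did 23.3% of all genes. Foxp3 fell by 1.05 (SE 0.25), with 22.2% of all genes lower, and Cd4 and Ikzf2 were not called. The part of either in the receptor differences was not tested.

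Reads of Ccr6 outside its annotated exons differed by tissue. They made up 8.59% of all Ccr6 gene reads in Csnk2b-deficient and 10.8% in WT lymph node Tregs, against 54.5% in Csnk2b-deficient and 52.7% in WT spleen Tregs. For Ccr7 the shares were 0.657% in Csnk2b-deficient and 0.539% in WT lymph node Tregs, against 15.1% and 15.7% in the Csnk2b-deficient and WT spleen libraries. Over all genes the share was 21.1% to 22.0% in the lymph node and 22.7% to 23.8% in the spleen. Within a tissue the genotypes had similar shares for Ccr6 and for Ccr7. The other receptors were mixed. Cxcr4 had the larger share in the lymph node, with 13.7% in Csnk2b-deficient and 19.1% in WT Tregs, against 6.58% and 5.46% in the spleen. Cxcr5 did too, with 13.0% and 8.05% against 3.57% and 5.64%. For Ccr2, Ccr8 and Cxcr3 the share was smaller in both lymph node libraries, and for Ccr4 the genotypes differed in direction. Kit and tissue may be confounded here as well.

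The sequence before the start site was set beside the receptors called between tissues, because Cxcr4 moved in the other direction from Ccr6 and Ccr8. RefSeq start sites (GRCm38.p6) were found for 7 of the 9 receptors. None was found for Cxcr5 or for Ccr7, which also rose in the lymph node. In the 250 bases before its start Cxcr4 held 19 CpG dinucleotides, a count reached by 19.7% of all 32851 start sites, and the other matched receptors held between 1 and 7. The sequences are printed on the gene's strand with each CpG in capitals, and the letters CG were searched, which read the same on both strands. Ccr6 has 2 listed start sites, with 1 and 7 CpG, and the first is shown. They lie at chr1:128592300-128592549 (minus strand) for Cxcr4, chr17:8235793-8236042 (plus strand) for Ccr6 and chr9:120091883-120092132 (plus strand) for Ccr8.
Cxcr4: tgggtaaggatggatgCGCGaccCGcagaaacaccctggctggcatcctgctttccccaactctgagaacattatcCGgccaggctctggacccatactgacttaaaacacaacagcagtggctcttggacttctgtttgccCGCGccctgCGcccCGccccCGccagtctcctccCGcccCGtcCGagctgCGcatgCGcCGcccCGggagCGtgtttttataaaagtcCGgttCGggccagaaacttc
Ccr6: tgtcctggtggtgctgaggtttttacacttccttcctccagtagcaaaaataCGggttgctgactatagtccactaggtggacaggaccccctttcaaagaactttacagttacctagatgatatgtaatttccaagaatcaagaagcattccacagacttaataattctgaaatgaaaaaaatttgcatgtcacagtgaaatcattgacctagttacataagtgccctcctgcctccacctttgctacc
Ccr8: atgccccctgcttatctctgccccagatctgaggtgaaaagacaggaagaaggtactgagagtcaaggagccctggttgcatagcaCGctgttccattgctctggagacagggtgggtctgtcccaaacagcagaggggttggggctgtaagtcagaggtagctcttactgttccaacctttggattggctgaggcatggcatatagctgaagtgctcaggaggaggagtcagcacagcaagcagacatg
Ccr6 and Ccr8 each held 1 CpG in the windows shown, a count reached by 92.1% of all start sites. Ccr2, which was not called between tissues, also held 1 CpG, and Ccr4 and Cxcr3 held 3 each. The second Ccr6 start site, with 7, was above the median of 6 over all start sites. A low count was therefore not particular to the receptors that rose, and the counts are a description of these windows.

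Of 15 other chemokine receptor genes in the tables, 5 had enough reads for the test and 4 had 0 reads in all libraries. By genotype edgeR called 0 of these 5, with 0 at an unadjusted p below 0.05, compared with 0.144% and 4.88% of all genes. Among them, the eosinophil receptor gene Ccr3 had a log2 fold change of -0.59 ± 0.79 and the gut-homing receptor gene Ccr9, with 22.2% of its reads uniquely placed, -1.89 ± 1.70 (SE, n = 2 per genotype). Ccrl2, a chemerin-binding receptor that does not signal like the others, had 0.14 ± 0.43 by genotype and rose by 1.34 ± 0.44 in the lymph node (edgeR adjusted p = 0.0268). Cx3cr1, the fractalkine receptor, was too low to test, with 15 reads in Csnk2b-deficient and 0 in WT lymph node Tregs, and 3 in Csnk2b-deficient and 0 in WT spleen Tregs. It was chosen after its values were seen.

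Of 32 chemokine ligand genes 5 were tested. By edgeR 0 were called by genotype (0 at an unadjusted p below 0.05), compared with 0.144% and 4.88% of all genes. In the lymph node 1 rose, compared with 23.3% of all genes. That gene was Ccl5, a chemokine that draws effector T cells, at 1.00 ± 0.36 between tissues (adjusted p = 0.0435) and 0.61 ± 0.36 by genotype. Cxcl10, a ligand of Cxcr3, had a log2 fold change of 1.06 ± 0.84 by genotype, with 67 reads in Csnk2b-deficient and 71 in WT lymph node Tregs, and 52 in Csnk2b-deficient and 12 in WT spleen Tregs. Only 19.3% of its reads were uniquely placed. Ccl20, the ligand of Ccr6, had 17 reads in Csnk2b-deficient and 0 in WT lymph node Tregs, and 3 in Csnk2b-deficient and 0 in WT spleen Tregs. Ccl8, a ligand of Ccr8 made by macrophages, had 35 reads in the Csnk2b-deficient lymph node library and 0 in the other libraries. Both were chosen after their values were seen. The monocyte and macrophage markers given above beside Ccr2 were highest in that same library, and their part was not tested.

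Among 39 tested genes of chemokine receptor signalling, edgeR called 0 by genotype, compared with 0.144% of all genes. At an unadjusted p below 0.05 there were 3, and 4.88% of all genes. These were Rgs1 at 0.79 ± 0.17 (SE, n = 2 per genotype, adjusted p = 0.215), Rgs10 at -0.76 ± 0.21 and Gnb2, which had a log2 ratio of -2.30 in the lymph node, from 15 and 72 reads in Csnk2b-deficient and WT Tregs, and -0.25 in the spleen. Rgs1 and Rgs10 speed the shut-off of G proteins, and Gnb2 encodes a G protein beta subunit with 35.5% of its reads uniquely placed. Rgs1 was higher by nearly the same log2 ratio in both pairs, 0.81 in the lymph node and 0.77 in the spleen. Between tissues 8 of the 39 rose and 19 fell, compared with 23.3% and 22.2% of all genes, and their median log2 difference was -0.46, against -0.17 over all genes. Those that rose in the lymph node were Rgs1, Rac2, Rgs2, Cdc42, Rgs10, Rgs19, Rassf5 and Pik3cg. Those that fell included both beta-arrestin genes, Arrb1 and Arrb2, the receptor kinase genes Adrbk1 and Grk6, the G protein genes Gnb2 and Gnai2, and the exchange factor and actin genes Prex1, Rasgrp2, Was, Dock8, Rac1 and Coro1a. The others that fell were Rgs3, Rgs14, Rgs16, Tln1, Ptk2b, Pik3r5 and Fermt3.

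Of 20 tested homing and adhesion genes that work beside the chemokine receptors, 2 rose in Csnk2b-deficient Tregs by edgeR and 0 fell. Over all genes 0.126% rose and 0.0180% fell. The 2 were the gut-homing receptor gene Gpr15 and the integrin gene Itgae. Itgb2, the shared chain of the leukocyte integrins, had 0.52 ± 0.20 and Itga4, which pairs with Itgb1 or Itgb7, 0.38 ± 0.17. Between tissues 6 of the 20 rose and 6 fell in the lymph node, compared with 23.3% and 22.2% of all genes. Gpr15, Itgae, Itgb2, Cd44 and Cd69 were among those that rose. S1pr4, Ltb4r1, Itga4, Itgb7, Itgal and Selplg fell, Ltb4r1 with 0 reads in both lymph node libraries and 30 and 15 in the Csnk2b-deficient and WT spleen libraries.

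Transcription factors known to act on single receptors were set beside them, and their part in the receptor differences was not tested. Of 16 tested factors edgeR called 0 higher and 1 lower by genotype, Foxp3, compared with 0.126% and 0.0180% of all genes. Between tissues 2 were called higher and 5 lower, compared with 23.3% and 22.2% of all genes. Foxp3, the lineage factor used in the sort, had 562 reads in Csnk2b-deficient and 2334 in WT lymph node Tregs, and 2160 in Csnk2b-deficient and 6395 in WT spleen Tregs, with 25.9% of them uniquely placed. Its genotype call was absent on uniquely placed reads alone and with median-of-ratios size factors, where edgeR called 0 genes lower. Tbx21, or T-bet, which drives Cxcr3 in type 1 Tregs, had 8 reads in Csnk2b-deficient and 4 in WT lymph node Tregs, and 84 in Csnk2b-deficient and 79 in WT spleen Tregs. By genotype Tbx21 had a log2 fold change of 0.65 ± 0.88, with log2 ratios of 0.66 in the lymph node and 0.52 in the spleen. Between tissues it fell by 3.17 on the log2 scale in the lymph node (SE 0.93, edgeR adjusted p = 0.0157). Cxcr3 was higher there in Csnk2b-deficient and close to equal in WT Tregs.

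Foxo1, which with Klf2 maintains Ccr7 in naive T cells, had a log2 fold change of -0.90 ± 0.20 (SE, n = 2 per genotype, edgeR adjusted p = 0.215). Its log2 ratio was -0.89 in the lymph node and -0.91 in the spleen. Klf2 had -0.44 ± 0.27 by genotype and fell by 1.01 in the lymph node (SE 0.27), where Ccr7 rose. Bach2, which holds T cells in a resting state, had -1.56 ± 0.30 by genotype (edgeR adjusted p = 0.119). Bcl6, tied to Cxcr5 in follicular cells, had 55 reads in Csnk2b-deficient and 32 in WT lymph node Tregs, and 216 in Csnk2b-deficient and 362 in WT spleen Tregs. Gata3, tied to Ccr4 and Ccr8 in type 2 cells, had 0.25 ± 0.23 by genotype. Gata3, and Bcl6 by genotype, were chosen after their values were seen. Lef1 and Batf were the factors that rose in the lymph node.

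The genes nearest in pattern over the 4 libraries were found for the 3 receptors with the largest absolute log2 fold change by genotype. Closeness was the Euclidean distance between log2 CPM values centred on each gene's mean, over 7163 genes with at least 20 CPM on average. Nearest to Cxcr3 were Cd82 (distance 0.14), Fam45a (0.24) and Ifngr1 (0.37). Cd82, a tetraspanin, had 1397 CPM in Csnk2b-deficient and 400.4 CPM in WT lymph node Tregs, and 521 CPM in Csnk2b-deficient and 348 CPM in WT spleen Tregs. Nearest to Ccr2 were S100a6 (0.16), Slc35b4 (0.24) and Gpm6b (0.29), and nearest to Ccr6 were Ece2 (0.18), Cd86 (0.22) and Trav14d-1 (0.41). With 4 libraries many genes can lie this close, so these names describe the pattern and nothing more.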

How the data were processed

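The authors deposited 1 table per library with raw counts of reads per gene, per the file headers: exon, gene and exon-junction reads, each as total and uniquely placed. The submitters' processing notes name CASAVA 1.8.2 and the mm9 build. For the aligner, the annotation and the use of strand, nothing is stated in these sources. The 9551 of 37583 features without an exon length, which held 0 exon reads, were dropped. Total exon reads were the counts, and uniquely placed ones an alternative.

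The test across genes was the robust quasi-likelihood test of edgeR 4.0.16 (R 4.3.3) on tissue plus genotype, after filterByExpr and TMM scaling, with Benjamini-Hochberg adjustment over all 11113 genes and a threshold of 0.05. SEs were recovered from the F statistic, as the size of the log2 fold change divided by its square root. Pair ratios are reads over scaled library size with 95% exact binomial intervals, and their log2 values carry a prior count of 2. The alternatives used DESeq2 1.42.0, limma 3.58.1 and edgeR settings. The fit was tested on simulated data.

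Replicate 1 of both genotypes was spleen and replicate 2 lymph node, so the numbers pair libraries by tissue, and deviations from genotype means correlated at 0.783 within a number. The libraries of a pair were not duplicates, since the chi-square between them, divided by its degrees of freedom, was 31.5 in the lymph node and 7.96 in the spleen. The edgeR p-values rest on the spread between these libraries and on variance borrowed from other genes. They measure no spread between animals. Members, lists and tests were chosen with earlier results of these data known. All 9 receptors are named; of each other list, genes past the threshold and otherwise up to 4 by smallest unadjusted p, and others are marked as chosen after their values were seen. NK, dendritic, CD8 T, mast cell, erythroid and stromal marker lists were also summed: in Csnk2b-deficient and WT lymph node libraries they came to 10.3 and 1.22, 19.1 and 11.2, 39.0 and 52.5, 1.10 and 0.733, 3.95 and 41.8, and 249 and 224 CPM. Some genes of these lists are not reported here. Nearly all stromal reads were Pecam1, which Tregs also express.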

Additional observations from a re-analysis of the deposited data

Results flagged for a closer look

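For Ccr8 the log2 ratio of Csnk2b-deficient to WT Tregs was -0.72 in the lymph node and 0.062 in the spleen, so the tissues pointed in opposite directions. For Ccr2 the log2 ratio of lymph node to spleen was 0.18 in Csnk2b-deficient and -0.61 in WT Tregs, again in opposite directions. Neither difference was tested, since each value comes from 1 library against 1 library.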

How the results depend on the processing

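Each genotype and tissue had 1 library of 4737814 to 6750695 exon reads, so the missing replicates limit every result, and low counts also limit Cxcr6, Cxcr4 in the lymph node and Ccr6 in the spleen. By genotype, the test called 14 genes higher and 2 lower. These counts became 4 and 0 with median-of-ratios size factors, 10 and 1 with upper-quartile factors, 79 and 32 without a filter, 38 and 16 with DESeq2, 39 and 21 with limma-voom, and 7 and 0 with uniquely placed reads. Without the replicate block, that is without tissue in the fit, edgeR called 0 and 0, with 29 genes at an unadjusted p below 0.05. Leaving out single libraries gave 0 to 1 higher and 0 to 0 lower. Receptors called higher by genotype numbered 0 in the fit reported and without the block, and 2 without a filter, with DESeq2 and with limma-voom. Between tissues, leaving out single libraries gave 1255 to 3698 genes higher and 931 to 4295 lower, against 2586 and 2464. Receptors called higher between tissues numbered 5 without a filter and 3 to 5 with a library left out, and those called lower 1 to 2. Fits that leave out a library also leave out the second factor, so genotype and tissue mix in them. In these the genotype signs of Ccr6, Ccr7, Ccr8 and Cxcr4 changed, without being called, while Cxcr3, Ccr2, Ccr4 and Cxcr5 kept their signs in all 12 alternatives. Without the WT lymph node library the log2 fold change was 1.54 for Cxcr3, 1.08 for Ccr2, 0.16 for Ccr4 and 1.60 for Ccr6. Upper-quartile factors moved the median tissue difference over all genes to -0.32, against -0.17. The cause of these changes was not tested.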
